A study of Mus musculus with 2 samples.

Results

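Described here are 29 genes of haem synthesis and iron handling in cultured mouse mast cells given an siRNA against GATA1 or a control siRNA. The genes were chosen by their known role, and all 29 have a probe among the 35010 genes of the array. Of these, 27 were matched by the symbol in the array annotation, and Tfr2 and Flvcr1, which carry older symbols there, were matched by RefSeq accession. The study asked what loss of GATA1, a zinc finger factor that drives the erythroid programme and is also made by mast cells, does to mast cells of adult mice.

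The RNA of 1 array came from C57BL/6 bone marrow-derived mast cells transfected with 200 pmol of GATA1 siRNA, and the RNA of the other from the same kind of cells transfected with 200 pmol of control siRNA. Both cultures were grown from marrow of femur and tibia for 2 weeks in 10 ng/mL interleukin 3 and for another 2 weeks in the same cytokine plus stem cell factor at 10 ng/mL. Material from 2 animals was pooled for each array, and the time between transfection and harvest and the sequence targeted by the siRNA are not given in the sources used here. With 1 array per siRNA there is no replicate and no test, and precision is limited by the number of arrays.

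Haem is made in a chain of enzymes that starts and ends in the mitochondrion. Iron for the final step arrives through the transferrin receptor and the mitochondrial iron carriers, is held in ferritin when in excess, leaves the cell through ferroportin, and is set free again when haem oxygenase opens the haem ring. In erythroid cells GATA1 activates many genes of this pathway, among them Alas2, whereas other cells start haem synthesis with Alas1.

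Values are scaled signals, the multiple of each array's 75th percentile over its probes (340.0 scanner units for GATA1 siRNA and 303.2 for control siRNA), and differences are log2 GATA1 siRNA minus control siRNA. A gene counts as measured where a probe was well above background on both arrays, and as past the size rule at 1.5-fold, a log2 difference of 0.58. Signals of different genes depend on their probes and are not set against each other. The scanner software gives an error for each spot, and carried to the difference it was 0.20 at the median over the members (0.20 to 0.37). This error is the software's estimate for the spots, not a spread measured between them, and it does not cover the cells or animals. Bright probes share nearly the same value, 0.20, so for them a difference larger than the error is one past a nearly fixed cut. Gata1 itself had a scaled signal of 11.6 with GATA1 siRNA, against 54.1 with control siRNA, which is 4.68-fold lower (log2 difference -2.23, 1 probe, scanner error 0.20).

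Of the 29 genes, 28 were measured, through 40 of their 41 probes. Hmox1 and Slc40a1 were at least 1.5-fold higher with GATA1 siRNA and Cpox was at least 1.5-fold lower, while the other 25 lay within 1.5-fold. The 2 higher genes are 7.14% of the measured members, where 1.83% of all 20524 measured genes were at least 1.5-fold higher. The single lower gene is 3.57% of the members, where 2.77% of all genes were at least 1.5-fold lower. In either direction, 3 of the 28 members and 4.60% of all genes were past the rule. No member was past 2-fold, which 0.901% of all genes were. The median difference of the members was 0.05, against 0.01 over all genes, and the median absolute difference was 0.13 for both. The members ranged from -0.64 to 0.63, with 17 above 0 and 11 below it. Of all 20524 measured genes, 10816 were above 0 and 9708 below. The member split moved with the scaling, to 20 and 8 with the authors' deposited table and 15 and 13 with loess. Sign counts of single roles and lists below are to be read beside these splits.

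**Figure D1:**
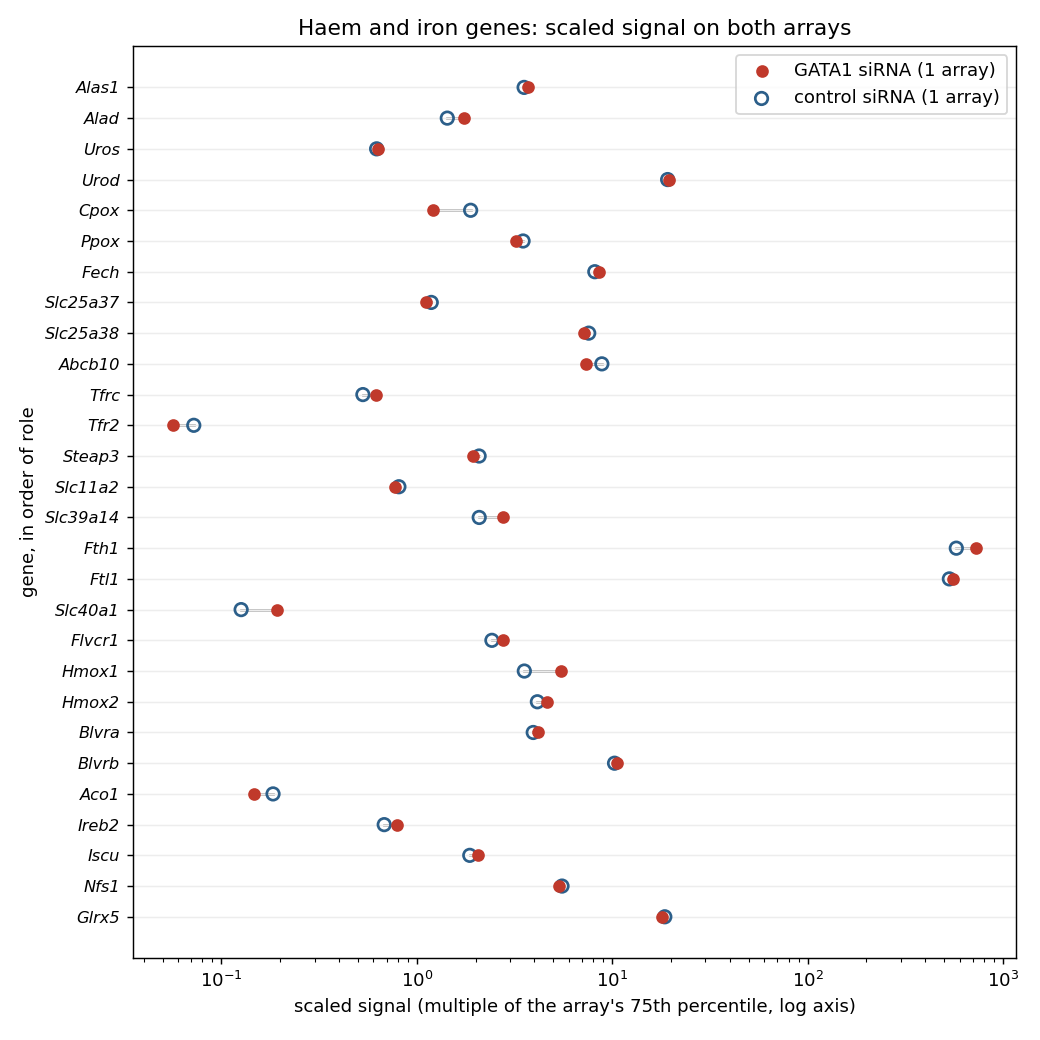
Scaled signal (horizontal log axis, multiple of each array's 75th percentile) of the 28 measured genes, in order of role, with GATA1 siRNA as filled red points and control siRNA as open blue circles, 1 array each. For most genes the points nearly coincide, and the widest gaps are those of Cpox, Slc40a1 and Hmox1; only the distance within a row can be read, since probes differ between rows.

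**Figure D2:**
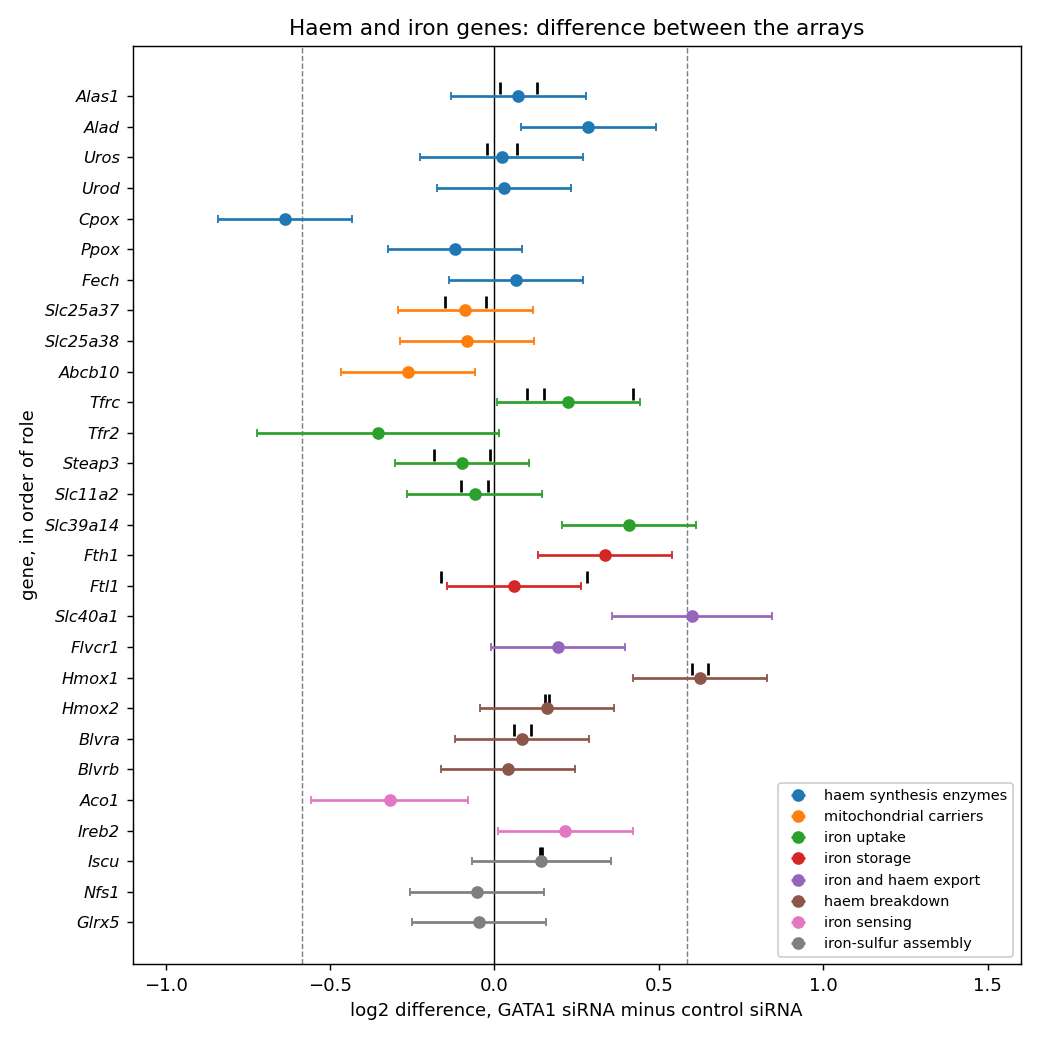
Log2 difference (GATA1 siRNA minus control siRNA) of each measured gene, coloured by role. Points are gene means, horizontal bars the scanner error of the difference, black ticks the single probes of genes with several, and dashed lines the 1.5-fold rule, which Cpox passes on the left and Slc40a1 and Hmox1 on the right.

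Among the haem synthesis enzymes, the coproporphyrinogen step was the one that stood out. Cpox, the mitochondrial enzyme that turns coproporphyrinogen into protoporphyrinogen, had a scaled signal of 1.21 with GATA1 siRNA, against 1.89 with control siRNA. It was 1.56-fold lower (log2 difference -0.64, scanner error 0.20) and held rank 471 from the lowest among the 20524 genes. The value rests on a single probe at chr16:58680403-58680465 (plus strand, mouse build mm9 of the array annotation), so no other probe checks it. Of genes with a similar mean signal, the second brightest of 4 equal bins, 1.31% were at least 1.5-fold lower. With the table of normalized values that the authors deposited, Cpox fell short of the rule, and so it did with another background correction.

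The other measured enzymes of the chain lay within 1.5-fold, from -0.12 (Ppox) to 0.29 (Alad). Alas1, which condenses glycine with succinyl-CoA in the first step, had 3.73 with GATA1 siRNA and 3.54 with control siRNA, a difference of 0.07 with probes at 0.02 and 0.13. Alas2, its erythroid counterpart, was not well above background on either array, with signals of 2.87 and 3.30 scanner units on the GATA1 siRNA and control siRNA arrays, and has no fold change here. The paralogue that starts the pathway outside erythroid cells was thus measured on both arrays and the erythroid one on neither.

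Alad, which joins the aminolevulinate molecules to porphobilinogen, had 1.75 with GATA1 siRNA, against 1.43 with control siRNA (0.29). Uros, which closes the ring to uroporphyrinogen, had 0.632 with GATA1 siRNA and 0.623 with control siRNA (0.02, probes at -0.02 and 0.07). Urod, which trims the side chains of uroporphyrinogen, had 19.6 with GATA1 siRNA and 19.2 with control siRNA (0.03). Of this trio, the Alad difference alone was larger than its scanner error of 0.20. Ppox, the enzyme after Cpox, had 3.22 with GATA1 siRNA and 3.50 with control siRNA (-0.12). Fech, which inserts iron into the finished ring, had 8.53 with GATA1 siRNA and 8.15 with control siRNA (0.07). Neither neighbour of the Cpox step in the chain differed by more than its scanner error. Over the 7 measured enzymes the median difference was 0.03, with 5 above 0 and 2 below.

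Because GATA1 binds DNA at GATA motifs, the letters AGATAA, and the same letters with a T as the first base, a G as the last or both, were counted on both strands in RefSeq promoter windows (build GRCm38.p6), from 250 bases before to 50 bases after a gene's start. The table gave 35 windows for 22 of the members; Hmox1, Slc40a1, Fech, Slc25a37, Slc11a2, Slc39a14 and Iscu had none and were not scanned. Of these windows, 8 (22.9%), belonging to 8 members, held at least 1 match, against 29.8% of the 32851 windows of all genes. The Cpox window held 3 matches, as 1.76% of all windows did or more, and it was the one member window with that many. The Alas2 window held 1 match. The 250 bases before both starts are shown because Cpox was the one enzyme past the rule and Alas2 is the erythroid enzyme; capitals mark the matches, which in both genes read on the minus strand. A match describes the letters alone, and binding was not measured.
Cpox, chr16:58669958-58670207, plus strand: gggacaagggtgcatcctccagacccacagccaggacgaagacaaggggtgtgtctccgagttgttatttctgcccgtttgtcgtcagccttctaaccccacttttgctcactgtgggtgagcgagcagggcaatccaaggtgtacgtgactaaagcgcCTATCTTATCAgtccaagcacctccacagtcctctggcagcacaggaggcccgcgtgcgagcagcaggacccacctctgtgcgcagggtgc
Alas2, chrX:150547167-150547416, plus strand: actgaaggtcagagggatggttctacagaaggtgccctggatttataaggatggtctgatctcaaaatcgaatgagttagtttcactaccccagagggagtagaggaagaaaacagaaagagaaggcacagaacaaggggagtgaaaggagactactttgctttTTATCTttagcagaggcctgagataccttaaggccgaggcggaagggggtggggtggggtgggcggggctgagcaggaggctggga

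In the Cpox window, AGATAG on the minus strand covers bases 91 to 86 before the start. TGATAA covers bases 86 to 81 before it, sharing 1 base with the first. The third Cpox match, AGATAA, covers bases 5 to 10 counted from the start and is outside the stretch shown. The Alas2 match, AGATAA, also covers bases 86 to 81 before the start. The other members with a match were Uros, Tfr2, Steap3, Fth1, Hmox2 and Blvrb, whose differences ran from -0.35 (Tfr2) to 0.33 (Fth1).

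The carriers that serve the mitochondrial steps all stood slightly below 0. Slc25a37 (mitoferrin 1), which brings iron into the mitochondrion, had 1.11 with GATA1 siRNA and 1.19 with control siRNA (-0.09, probes at -0.15 and -0.03). Slc25a38, which supplies glycine for the first step, had 7.15 with GATA1 siRNA and 7.58 with control siRNA (-0.08). Abcb10, an inner membrane transporter that stabilises mitoferrin 1, had 7.38 with GATA1 siRNA and 8.85 with control siRNA (-0.26). Of the 3 carriers, the Abcb10 difference alone exceeded its scanner error of 0.20. With the authors' deposited table, where all genes stand higher by the same amount, Abcb10 stood at -0.20.

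Genes of iron uptake went both ways. Tfrc, the receptor for iron-loaded transferrin, had 0.619 with GATA1 siRNA and 0.530 with control siRNA over 3 probes, a difference of 0.22 ± 0.17 (SD between probes). Its probes gave 0.10, 0.15 and 0.42, so all lay above 0. The probe at 0.42 is dim, with 0.175 with GATA1 siRNA and 0.131 with control siRNA. Under a stricter filter on dim probes Tfrc stood at 0.13, below its scanner error of 0.22. The probe at 0.10 is printed 10 times on each array, which shows the spread between repeated spots. Its scaled signals ran from 1.25 to 1.37 with GATA1 siRNA (mean 1.31 ± 0.0490 SD) and from 1.12 to 1.31 with control siRNA (mean 1.22 ± 0.0562 SD). The spot ranges of the arrays overlap. At the 10 spot positions, 9 differences were above 0, with a mean of 0.10 ± 0.07 (SD over 10 spots). That SD is smaller than the scanner error of this probe, 0.20.

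**Figure D3:**
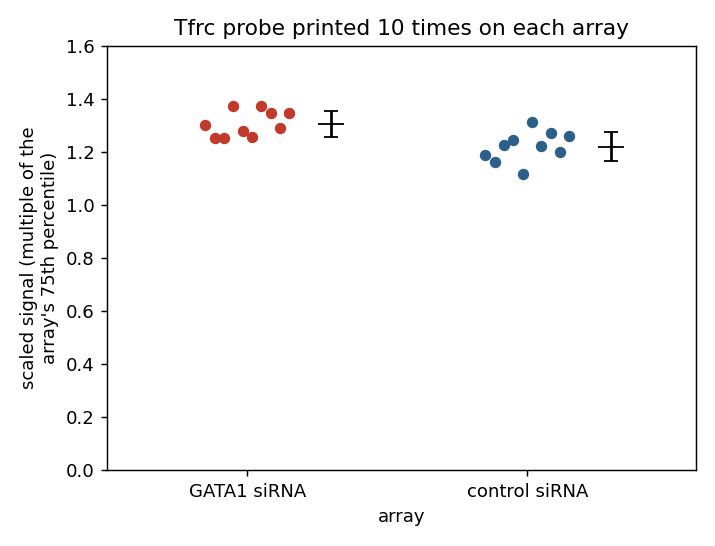
Scaled signal (vertical axis from 0, multiple of the array's 75th percentile) of the 10 repeated spots of a Tfrc probe, GATA1 siRNA left and control siRNA right. Bars are mean and SD over the 10 spots of an array, which are technical repeats of 1 sample; the GATA1 siRNA spots lie between 1.25 and 1.37 and the control siRNA spots between 1.12 and 1.31.

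Tfr2, the second transferrin receptor, known as an iron sensor in hepatocytes and erythroid cells, had 0.0565 with GATA1 siRNA and 0.0722 with control siRNA (-0.35). It was the member with the largest scanner error, 0.37, which exceeded its difference. Steap3, the endosomal reductase that turns ferric into ferrous iron, had 1.94 with GATA1 siRNA and 2.08 with control siRNA (-0.10, probes at -0.19 and -0.01). Slc11a2 (DMT1), which moves ferrous iron out of the endosome, had 0.776 with GATA1 siRNA and 0.810 with control siRNA (-0.06, probes at -0.10 and -0.02). Both steps behind the transferrin receptor thus differed by less than their scanner error. Slc39a14 (ZIP14), a carrier for iron that is not bound to transferrin, had 2.77 with GATA1 siRNA and 2.09 with control siRNA (0.41). Its difference was the largest of the uptake genes and within 1.5-fold. The median of the 5 uptake genes was -0.06.

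Both ferritin chains stood above 0. Fth1, the heavy chain, which oxidises iron for storage, had 728 with GATA1 siRNA and 577 with control siRNA (0.33, scanner error 0.20, 1 probe). Ftl1, the light chain, which helps form the mineral core, had 554 with GATA1 siRNA and 532 with control siRNA (0.06), but its probes disagreed. One probe gave -0.16 and the other 0.28. The probe at -0.16 is flagged as at a possible mark on the slide surface, because at least 2 nearby spots differ 4-fold or more between the arrays. This flag was set from the signals alone, and the surface itself was not examined. The SD between these probes, 0.31, was the largest among the 11 members with several measured probes, whose median was 0.06. Without flagged spots, Ftl1 stood at 0.28. Of all spots, 2.43% carry this flag, and no other member probe does.

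Both export genes also stood above 0. Slc40a1 (ferroportin), the iron exporter, had 0.191 with GATA1 siRNA and 0.126 with control siRNA. It was 1.52-fold higher (log2 difference 0.60, scanner error 0.24) and held rank 344 from the highest. It is among the dimmest of 4 equal bins of genes, where 3.57% were at least 1.5-fold higher and 6.96% at least 1.5-fold lower. Its single probe lies at chr1:45965255-45965314 (minus strand, mm9), and with the other background correction its difference was 0.18. Macrophages, which recycle haem iron, carry much Slc40a1 and Hmox1, and the 10 measured of 15 macrophage markers summed to 23.1 with GATA1 siRNA and 13.7 with control siRNA. These sums rest mainly on Cd68 and Adgre1. Among the 10 markers 9 were above 0, with Csf1r at 0.02, and C1qb was below it at -0.10. The part of macrophages in the values of Slc40a1 and Hmox1 was not tested. In RNA of a whole culture more cells of a type and more RNA per cell cannot be told apart. Flvcr1, the haem exporter, had 2.77 with GATA1 siRNA and 2.42 with control siRNA (0.19, less than its scanner error).

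Haem breakdown held the highest member, and its other genes were nearer to 0. Hmox1, the inducible haem oxygenase, had 5.48 with GATA1 siRNA and 3.55 with control siRNA. It was 1.54-fold higher (log2 difference 0.63, scanner error 0.20) and held rank 303 from the highest. Its probes, at chr8:77624207-77624266 and chr8:77620797-77620856 (plus strand, mm9), gave 0.60 and 0.65, so both passed the rule. With the other background correction the gene stood at 0.57, just short of it. Of genes with a similar mean signal, the second brightest of 4 equal bins, 1.15% were at least 1.5-fold higher. Hmox2, the constitutive isozyme, had 4.62 with GATA1 siRNA and 4.14 with control siRNA, with a difference of 0.16. Each isozyme was read by its own probes. The Hmox1 probe and the Hmox2 probe shown share no run of bases longer than 7. They were compared with each other alone, so whether either also binds the transcript of the other isozyme was not tested. Both probes are printed so that the inducible and constitutive readings can be traced to their sequence, and no letters are marked.
Hmox1, chr8:77620797-77620856, plus strand, mm9: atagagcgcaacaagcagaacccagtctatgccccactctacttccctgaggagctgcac
Hmox2, chr16:4764971-4765030, plus strand, mm9: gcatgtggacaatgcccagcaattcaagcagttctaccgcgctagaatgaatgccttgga

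The biliverdin reductases, which turn the product of haem oxygenase into bilirubin, differed little. Blvra had 4.18 with GATA1 siRNA and 3.94 with control siRNA (0.08, probes at 0.06 and 0.11). Blvrb had 10.6 with GATA1 siRNA and 10.3 with control siRNA (0.04). All 4 breakdown genes were above 0, with a median of 0.12, and Hmox1 alone differed by more than its scanner error.

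The iron regulatory proteins, which bind the mRNAs of ferritin and the transferrin receptor when iron is low, went opposite ways. Aco1 (IRP1), a cytosolic aconitase when it carries its iron-sulfur cluster, had 0.147 with GATA1 siRNA and 0.184 with control siRNA (-0.32, scanner error 0.24). Ireb2 (IRP2), which is degraded when iron is plentiful, had 0.791 with GATA1 siRNA and 0.681 with control siRNA (0.22, scanner error 0.20). Each was within 1.5-fold and past its scanner error. Aco1 is a dim gene, in the bin of lowest signal, where 10.5% of genes were past 1.5-fold in either direction.

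Iron-sulfur assembly was nearly level between the arrays. Iscu, the scaffold, had 2.06 with GATA1 siRNA and 1.87 with control siRNA, and both of its probes gave 0.14. Nfs1, the desulfurase that supplies sulfur, had 5.34 with GATA1 siRNA and 5.54 with control siRNA (-0.05). Glrx5, which hands clusters on, had 18 with GATA1 siRNA and 18.6 with control siRNA (-0.05). None of these differed by more than its scanner error.

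Across the whole set, 10 of the 28 measured members differed by more than their scanner error, and Cpox, Slc40a1 and Hmox1 did so by more than 2 times that error. The share of all measured genes past these cuts was not computed, so the counts do not set the members apart from other genes. Just inside the 1.5-fold rule, the next genes were Slc39a14 at 0.41 and Tfr2 at -0.35. Of the 11 members with several measured probes, 9 had all probes on one side of 0, and the exceptions were Uros and Ftl1. The like share among all 5593 genes with several measured probes was not computed. The SD of the differences was 0.29 over the synthesis enzymes and 0.30 over the uptake genes. It was 0.10 over the carriers and 0.11 over the iron-sulfur assembly genes. Over all members it was 0.27 and over all measured genes 0.29. These roles hold 3 to 7 measured genes each, so a single gene such as Cpox weighs much in an SD.

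**Figure D4:**
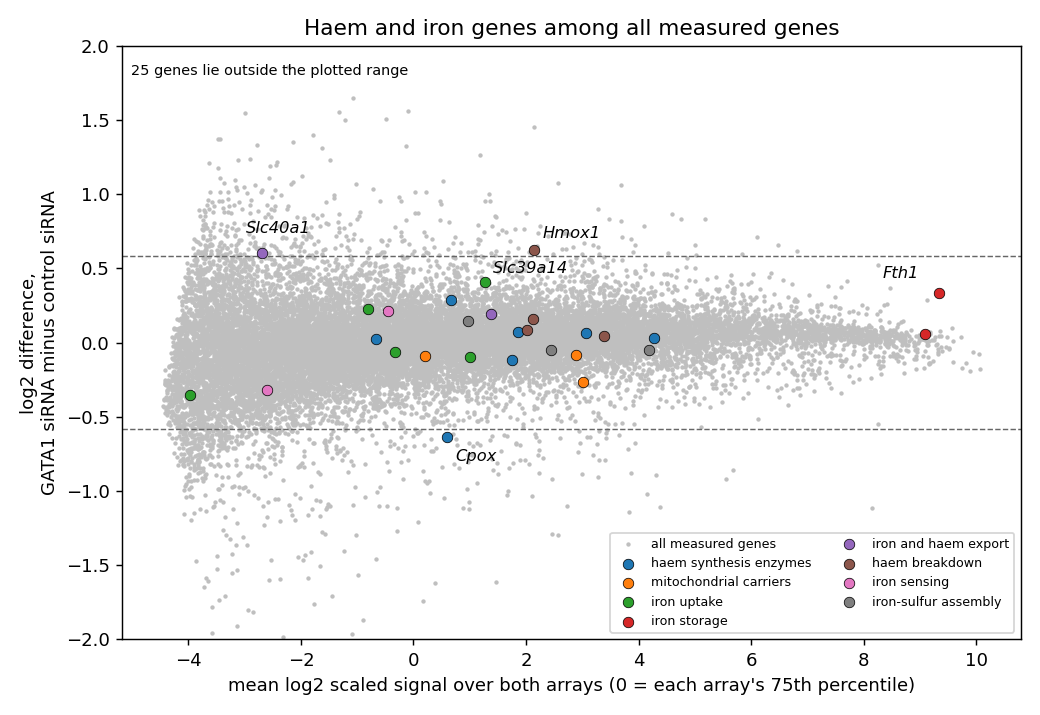
Log2 difference (GATA1 siRNA minus control siRNA) against mean log2 scaled signal over both arrays, with all measured genes in grey and the members coloured by role; dashed lines mark 1.5-fold and 25 genes lie outside the plotted range. The grey cloud is widest at low signal, where Slc40a1, Aco1 and Tfr2 lie, and narrow at high signal, where Fth1 lies at its upper edge.

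A list of 49 further haem and iron genes, also chosen by role, centred near 0 as the members did. Of these, 38 were measured, with a median difference of 0.03 and with 22 above 0 and 16 below. Trf, transferrin itself, had 9.76 with GATA1 siRNA and 6.45 with control siRNA, which is 1.51-fold higher (0.60, probes at 0.59 and 0.60). Cybrd1, a plasma membrane ferric reductase, had 0.172 with GATA1 siRNA and 0.356 with control siRNA, which is 2.07-fold lower (-1.05). This value rests on 1 dim probe, with 58.6 scanner units with GATA1 siRNA and 108 with control siRNA. Under the stricter filter on dim probes Cybrd1 has no value. The remaining Cybrd1 probe was above background with control siRNA only. These were the 2 genes past 1.5-fold among the 38 measured of this list, where 4.60% of all measured genes were past it.

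Lcn2, which binds iron-carrying siderophores and is stored in neutrophil granules, stood just inside the rule at 0.57, with 2.88 with GATA1 siRNA and 1.93 with control siRNA. Abcg2, a transporter that exports porphyrins, had 0.826 with GATA1 siRNA and 0.590 with control siRNA (0.48). Bach1, the haem-sensitive repressor of Hmox1, had 3.40 with GATA1 siRNA and 3.21 with control siRNA (0.08). Ncoa4, which carries ferritin to the lysosome, had 38.3 with GATA1 siRNA and 31.1 with control siRNA (0.30). Its only probe is flagged as at a possible surface mark, like the Ftl1 probe above, so Ncoa4 has no value without flagged spots. Fbxl5, the iron-sensing subunit of the ligase that degrades IRP2, had 0.817 with GATA1 siRNA and 0.782 with control siRNA (0.06). Beside mitoferrin 1 at -0.09, its paralogue Slc25a28 (mitoferrin 2) stood at 0.06. Of the 15 further iron-sulfur genes, all measured, none was past 1.5-fold, and their median was -0.02.

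Markers of other cells also differed between the arrays. All 8 mast cell markers were measured and none was past 1.5-fold. Their summed scaled signal was 1834 with GATA1 siRNA and 1896 with control siRNA. The marker farthest from 0 was Il1rl1, the interleukin 33 receptor, at -0.32, with its 3 probes from -0.38 to -0.24 and a scanner error of 0.20. Of the 10 measured macrophage markers, 4 were at least 1.5-fold higher and none lower. Cd68 stood at 1.07, Adgre1 at 0.63 and Csf1r at 0.02, while Spic, Vcam1, Cd163 and C1qa were not well above background. Neutrophil markers, 10 of 12 measured, had 5 genes at least 1.5-fold higher and none lower, and their sum was 141 with GATA1 siRNA and 95.6 with control siRNA. Lcn2 belongs to that list too. Of 15 erythroid markers, 7 were measured, 2 higher (Hba-a1 at 0.69 and Hba-a2 at 1.0) and 1 lower (Epor at -1.58), with a sum of 7.78 with GATA1 siRNA and 6.19 with control siRNA. The erythroid markers Klf1, Trim10, Rhag, Ahsp and Epb42, like Alas2, were at background on both arrays. The part of these cells in the values of Trf and Lcn2 was not tested either. Mitosis markers, all 10 measured, had a median of 0.29 and none past 1.5-fold.

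**Figure D5:**
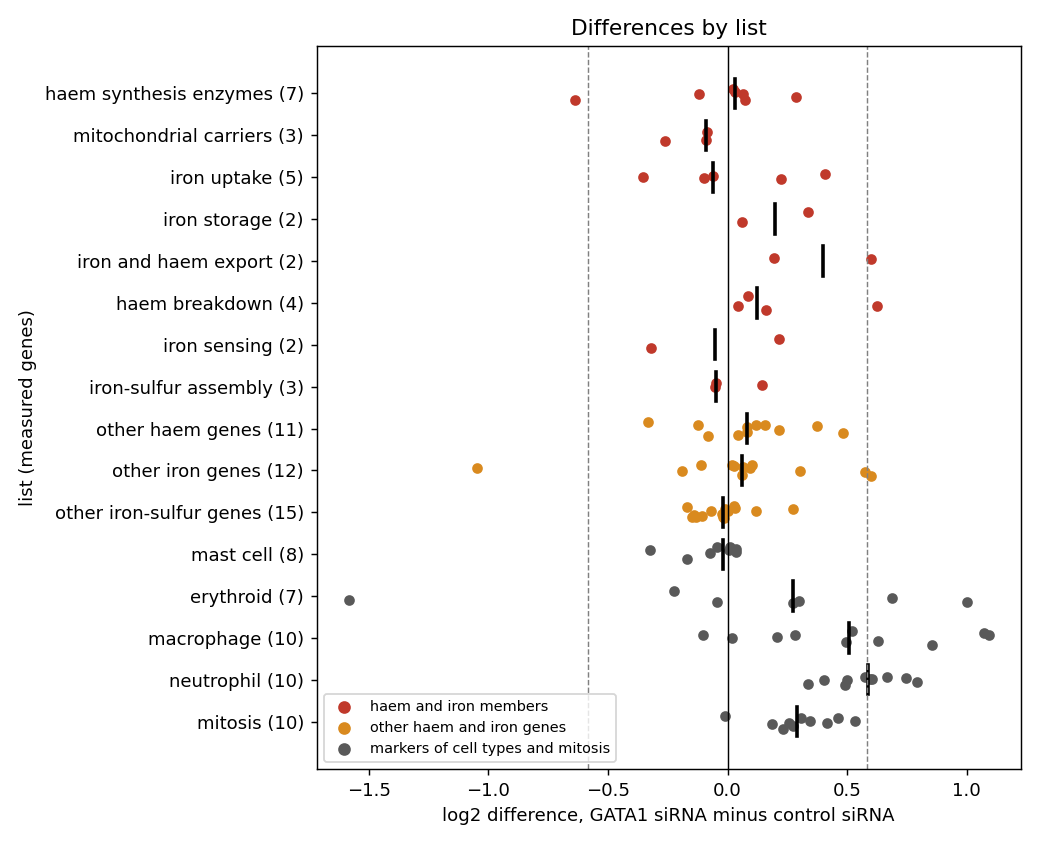
Log2 difference (GATA1 siRNA minus control siRNA) of every measured gene by list, with the number measured in parentheses and black bars at the list medians; dashed lines mark 1.5-fold. Members are red, further haem and iron genes orange and markers grey; the haem and iron lists have medians from -0.09 (mitochondrial carriers) to 0.40 (export, 2 genes), while the macrophage and neutrophil lists have medians of 0.51 and 0.59.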

How the data were processed

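From mast cells grown out of bone marrow, 100 ng of total RNA per siRNA was amplified, labelled with Cy3 and hybridised to 1 Agilent one-colour array each, per the labels' protocols; both arrays share a slide. Spot signals are intensity values from Agilent Feature Extraction 10.7.3.1, per the file headers, already background-subtracted. A table of normalized intensity, also deposited, equals each array's processed signal divided by its median (largest relative deviation 4.49e-06). How that table was made is not given in the sources used here.

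Control spots and scanner outliers (133 with GATA1 siRNA, 117 with control siRNA) were left out, and repeated spots were averaged on the log2 scale. Of 55659 probes, 55.2% with GATA1 siRNA and 52.7% with control siRNA were well above background, and none of the spots was saturated. Each array was divided by its 75th percentile, and a gene is the mean over its measured probes. The scanner error is the software's spot error carried to the log2 difference, averaged over a gene's probes. Genes were named by RefSeq accession (27225 probes) and otherwise by the array annotation. No test across arrays was possible, so a size rule of 1.5-fold was used, with 2-fold as an alternative. Alternatives covered background correction (normexp, offset 50, limma 3.58.1 in R 4.3.3), scaling (the authors' table, the median, quantiles, loess with span 0.4), filters on dim probes, several probes per gene, outlier spots and spots at marks. The computation was tested on simulated data. Python 3.11.15, numpy 2.4.6 and pandas 2.3.3 were used.

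The members, the further lists, the markers and the size rule were chosen with earlier results of these data known. Named genes are all members, the further haem and iron genes past 1.5-fold or among the 4 with the largest absolute difference, plus Bach1, Ncoa4, Fbxl5 and Slc25a28; some genes of the lists are not reported here. At most 3 of the brightest markers per list are named with values, and the further markers named with values or as below background were chosen after their values were seen.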

Additional observations from a re-analysis of the deposited data

How the results depend on the processing

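No paired analysis was possible because each siRNA has 1 array, and for the same reason no replicate could be left out. Under normexp background correction, 0 members were past 1.5-fold, 0 higher and 0 lower, with Cpox at -0.56, Hmox1 at 0.57 and Slc40a1 at 0.18. Of all genes, 1.32% were past the rule, against 4.60% as reported. This setting also adds an offset of 50 to every signal, which by itself shrinks log2 differences, most for dim probes. The offset and the background estimate were not tried apart, so their parts were not tested. With the authors' deposited table, 0 members were lower, with Cpox at -0.58, just short of the rule. That table shifts every gene up by the same amount, and its median over all genes was 0.07, against 0.01 as reported. With the stricter filter on dim probes, which drops Slc40a1 and leaves 25 members measured, 1 member was higher. Under the 2-fold rule the counts were 0 in all, 0 higher and 0 lower. In the remaining alternatives the genes past the rule were Hmox1, Slc40a1 and Cpox. Over the alternatives, Hmox1 ranged from 0.57 to 0.69, Cpox from -0.65 to -0.56 and Slc40a1 from 0.18 to 0.67, the member median from 0.02 to 0.11 and that of the further genes from -0.02 to 0.09. Of the 28 measured members, 21 kept one sign throughout and 7 near 0 had values on both sides. Ftl1 stood at -0.16 by its brightest probe, Fbxl5 at -0.67 without a filter on dim probes and Cybrd1 at -0.67 with normexp. Of all genes past 1.5-fold, 39.8% were higher as reported, 53.6% with loess, 53.1% with the authors' table and 49.7% with the stricter filter. Differences of the dimmest members (Tfr2, Slc40a1 and Aco1) are limited by signal over background.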

Other observations

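Haem carriers outside the named set, chosen after their values were seen, went both ways. Slc48a1 (HRG1), which moves haem out of the lysosome, had a scaled signal of 32.8 with GATA1 siRNA and 25.3 with control siRNA (log2 difference 0.37). Slc46a1, a folate carrier that also takes up haem, had 1.37 with GATA1 siRNA and 1.72 with control siRNA (-0.33, probes at -0.36 and -0.31). Both lay within 1.5-fold and kept their sign in the 11 alternatives tried.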
